A study of Arabidopsis thaliana with 23 samples.

Results

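H4 acetylation (H4ac) was compared between the histone deacetylase mutant *axe1-5* and its wild type (WT) after both had been treated with methyl jasmonate (MeJA). A gene was taken as acetylated in a library when the summit of a ChIP-seq peak, the base with the most reads in the peak, lay between the start and the end of that gene. Loci with a summit in both *axe1-5* +MeJA lists and in neither WT +MeJA list were called *axe1-5*-only, and loci with the opposite pattern were called WT-only. Of 37899 nuclear genes in the TAIR10.1 annotation, 18569 held a summit in at least 1 of the 4 peak lists. Among these, 1464 loci (7.88%) were *axe1-5*-only and 1384 (7.45%) were WT-only, which gave 2848 loci in all.

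HDA6 is a class I histone deacetylase of *Arabidopsis thaliana* that removes acetyl groups from histone tails and acts with DNA methylation in keeping transposons, repeats and some protein-coding genes silent. Acetylated H4 is a mark of open, transcribed chromatin and lies mostly near the start of active genes. In the jasmonate pathway, the hormone brings about the breakdown of JAZ repressors and so frees MYC2 and related factors, and HDA6 is known to interact with JAZ proteins.

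The study treated 12-day-old whole seedlings with 50 µM MeJA or with a mock medium for 3 h and then carried out ChIP with antibodies against tetra-acetylated H4 or trimethylated H3K27 (H3K27me3). WT was the DR5 line in the Col-0 background, from which the *hda6* allele *axe1-5* derives, and both genotypes therefore share that line's background. The comparison used 2 of these libraries a genotype, described by the study as independent biological replicates. The remaining lists of the series, 4 H4ac lists of mock seedlings and 7 H3K27me3 lists, were not used to choose the loci. All seedlings were sampled whole, so fewer cells carrying the mark and less mark per cell cannot be told apart.

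The 4 +MeJA libraries held 8700467 and 9840934 tags in WT and 10569841 and 14717755 tags in *axe1-5*, and 13489 to 15301 peaks were listed in each. The list with the most tags, *axe1-5* replicate 2, had the fewest peaks and the lowest median score (153, against 178 in the other *axe1-5* list and 277 and 290 in WT), where the score is 10 times the negative log10 of the peak's p-value. The part of this difference in the counts of loci was not tested. With 2 libraries against 2, an exact permutation test cannot give a two-sided p below 0.333, so the presence or absence of a summit was described and not tested. *HDA6* itself (chromosome 5, 25315506 to 25318347, minus strand) held a summit in all 4 lists, and the genotype cannot be checked from it, since a peak of H4ac does not report the *axe1-5* lesion. Peaks at the gene did not pass the limma test for a difference in level (log2 difference −0.29, Benjamini-Hochberg adjusted p = 0.367).

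The sequences under the summits of 6 loci are shown because they carry the highest fold enrichment on each side or belong to a gene named for silencing or photosynthesis. Each is 180 bases of the RefSeq TAIR10.1 genome centred between the summits of the replicates, and is written 5′ to 3′ on the strand of the gene. *AT3G54730* (chr3:20259284-20259463, plus strand) and *AT5G26270* (chr5:9206601-9206780, plus strand) were *axe1-5*-only and protein-coding, and *AT1G06987* (chr1:13857941-13858120, plus strand) was *axe1-5*-only and non-coding. *FWA* (chr4:13041534-13041713, plus strand) was *axe1-5*-only, and *AT3G07790* (chr3:2487499-2487678, plus strand) and *PSBQA* (chr4:11334485-11334664, plus strand) were WT-only. Capitals mark matches to GCCGCC (GCC-box) and TTGACC (W-box), which occurred in the window of *AT3G54730* and in none of the other 5 printed.
AT3G54730: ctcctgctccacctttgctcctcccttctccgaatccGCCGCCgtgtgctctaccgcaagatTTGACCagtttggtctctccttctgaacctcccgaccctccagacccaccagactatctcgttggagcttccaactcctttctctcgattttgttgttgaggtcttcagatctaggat
AT5G26270: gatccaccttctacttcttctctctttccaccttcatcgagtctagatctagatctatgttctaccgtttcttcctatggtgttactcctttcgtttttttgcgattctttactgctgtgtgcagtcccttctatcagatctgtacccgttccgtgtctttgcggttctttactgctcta
AT1G06987: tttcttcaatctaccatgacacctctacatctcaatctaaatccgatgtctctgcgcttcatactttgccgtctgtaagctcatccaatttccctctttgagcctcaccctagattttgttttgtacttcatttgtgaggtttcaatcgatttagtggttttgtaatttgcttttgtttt
FWA: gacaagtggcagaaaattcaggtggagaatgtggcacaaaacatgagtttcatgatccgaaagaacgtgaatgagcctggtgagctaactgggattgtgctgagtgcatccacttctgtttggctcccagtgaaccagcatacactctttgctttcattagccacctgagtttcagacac
AT3G07790: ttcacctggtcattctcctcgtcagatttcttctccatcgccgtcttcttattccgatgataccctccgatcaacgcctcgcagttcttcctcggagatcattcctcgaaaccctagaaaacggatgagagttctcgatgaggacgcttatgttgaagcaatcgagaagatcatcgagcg
PSBQA: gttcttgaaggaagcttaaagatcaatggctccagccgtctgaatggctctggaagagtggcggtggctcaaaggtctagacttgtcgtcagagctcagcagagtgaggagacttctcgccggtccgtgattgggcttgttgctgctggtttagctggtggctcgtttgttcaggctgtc

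Promoters of 3 WT-only genes, the 250 bases before the annotated start, are shown because they hold the letters that were more frequent at WT-only loci. *AT5G16130* (chr5:5268171-5268420, plus strand) codes for a ribosomal protein of the S7e family, *LHCA4* (chr3:17495034-17495283, minus strand) for a light-harvesting protein of photosystem I, and *AT3G12010* (chr3:3820102-3820351, plus strand) was chosen for holding both motifs. Capitals mark the site II element TGGGCC, read as GGCCCA on the other strand, the G-box CACGTG and the telobox AAACCCTAA.
AT5G16130: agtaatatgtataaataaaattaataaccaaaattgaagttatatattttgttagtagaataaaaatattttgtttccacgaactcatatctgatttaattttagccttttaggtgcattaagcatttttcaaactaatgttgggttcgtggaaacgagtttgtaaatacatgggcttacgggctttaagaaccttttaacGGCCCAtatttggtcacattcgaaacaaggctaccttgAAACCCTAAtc
LHCA4: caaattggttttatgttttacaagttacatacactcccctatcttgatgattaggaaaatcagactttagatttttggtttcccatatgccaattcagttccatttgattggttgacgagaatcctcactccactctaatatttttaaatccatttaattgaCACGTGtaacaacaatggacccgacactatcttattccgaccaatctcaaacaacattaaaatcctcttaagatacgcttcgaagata
AT3G12010: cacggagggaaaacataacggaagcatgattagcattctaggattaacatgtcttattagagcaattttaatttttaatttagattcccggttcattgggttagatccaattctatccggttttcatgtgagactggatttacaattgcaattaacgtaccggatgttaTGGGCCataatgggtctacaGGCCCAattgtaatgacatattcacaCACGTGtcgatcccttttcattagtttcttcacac

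The fold enrichment of a gene is given below as the highest value over input among the peaks with a summit in it, and 0 stands for no summit listed. In the 2 replicates, the median fold enrichment of *axe1-5*-only loci was 6.73 and 8.65 in *axe1-5* +MeJA, and that of WT-only loci was 7.59 and 8.11 in WT +MeJA. The 10345 genes with a summit in all 4 lists had higher medians of 9 and 11.3 in the *axe1-5* lists. The lower of a locus's 2 scores came down to 50.17 on the *axe1-5* side and to 50.05 on the WT side, at the limit of 50 that the peak caller set, and was under 60 for 218 *axe1-5*-only and 157 WT-only loci. Just outside the rule were 689 genes with a summit in both *axe1-5* lists and 1 WT list, and 2256 with a summit in both WT lists and 1 *axe1-5* list. When only peaks with a score of at least 100 were kept, the balance turned round, to 1081 *axe1-5*-only and 2296 WT-only loci. Without *axe1-5* replicate 2 the *axe1-5*-only loci numbered 2279, and without *axe1-5* replicate 1 the WT-only loci numbered 3063.

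A locus could also lack a summit because the peak's highest point lay in a neighbour. No peak of WT +MeJA overlapped 1163 of the *axe1-5*-only loci (6.26% of the 18569 genes), and no peak of *axe1-5* +MeJA overlapped 845 of the WT-only loci (4.55%). The nearest summit of the other genotype lay at a median distance of 3008 and 2425 bp from these. The other 301 *axe1-5*-only and 539 WT-only loci were overlapped by a peak of the other genotype. At these, the nearest summit of the other genotype lay a median of 474 and 575 bp outside the locus. Peaks of both lists of the other genotype overlapped 268 of the 301 and 445 of the 539, and at the rest a peak of 1 list did. Such loci are named below as overlapped, and whether the overlapping peak is the same as the locus's own was not tested. When peaks were merged into 16881 regions with no reference to genes, 1333 regions (7.9%) had peaks of both *axe1-5* lists and of neither WT list, and 1078 (6.39%) had the reverse.

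The *axe1-5*-only loci included many that the annotation does not list as working genes. Pseudogenes made up 114 of them (7.79%), against 16 of the WT-only loci (1.16%) and 1.47% of the genes acetylated in all 4 lists. Of the 400 pseudogenes with any summit, 28.5% were therefore *axe1-5*-only and 4% WT-only, beside 7.88% and 7.45% of all genes measured. Gene-poor stretches were the 40 of 240 chromosome bins of up to 500000 bp with under 0.5 times the median of 130.5 protein-coding genes. The last bin of each chromosome was shorter and was held to the same limit, so it could be called gene-poor by its length. Of 638 genes measured in the gene-poor bins, 95 (14.9%) were *axe1-5*-only and 23 (3.61%) WT-only. Sadhu elements, a family of non-coding retroposons, and other loci noted as retroelements were chosen after their values had been seen: of 17 measured, 3 were *axe1-5*-only and 0 WT-only. *SADHU3-2* had a fold enrichment of 11.9 and 12.4 in *axe1-5* +MeJA, *SADHU3-1* of 10.6 and 12.8, and *SADHU5-2* of 7.35 and 10.3. All 3 also had summits in both *axe1-5* mock lists and in no WT list.

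The highest *axe1-5*-only protein-coding locus with no overlapping WT peak was *AT3G54730*, annotated as a transcription repressor, at 14.4 and 18.1 in *axe1-5* +MeJA. It was followed by *AT4G07526*, an uncharacterized gene, at 14.9 and 17.4, and *AT5G26270*, also uncharacterized, at 16.9 and 14.9. *OFP9*, an ovate family protein that the annotation lists as a transcription repressor, reached 15.4 and 14.7. Among the 10 highest, 5 were uncharacterized and 3 were annotated as transcription repressors (*AT3G54730*, *AT2G19850* and *OFP9*). All 10 were listed at 0 in both WT mock lists and had a summit in at least 1 *axe1-5* mock list, for example 11.1 and 13.6 at *AT3G54730*. The calls of *AT3G54730*, *OFP9* and *AT5G41660* were lost when summits up to 2000 bp upstream of the gene were counted as its own. The highest value on this side was at the overlapping non-coding loci *AT1G06987* and *AT1G09255*, 16.6 and 22.6, which share their peaks and cannot be told apart.

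The WT-only loci with the highest values had other annotations. *AT3G07790*, which codes for a DGCR14-like protein, had 12.1 and 14.8 in WT +MeJA, and *AT3G49060*, a U-box protein kinase, had 12.9 and 13.0. *AT2G25610*, a subunit C protein of the proton-pumping ATPase family, had 12.2 and 12.3, and the SUMO protease gene *OTS2* had 10.4 and 13.3. Unlike in the treated *axe1-5* seedlings, all 10 of the highest WT-only protein-coding loci had a summit in both mock lists of *axe1-5*, such as 8.50 and 11.8 at *AT3G07790*, and all but 2 of them in both WT mock lists. In the plot of named loci, the *axe1-5* points of the WT-only genes thus lie at 0 under MeJA and mostly above it in the mock panel.

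**Figure D1:**
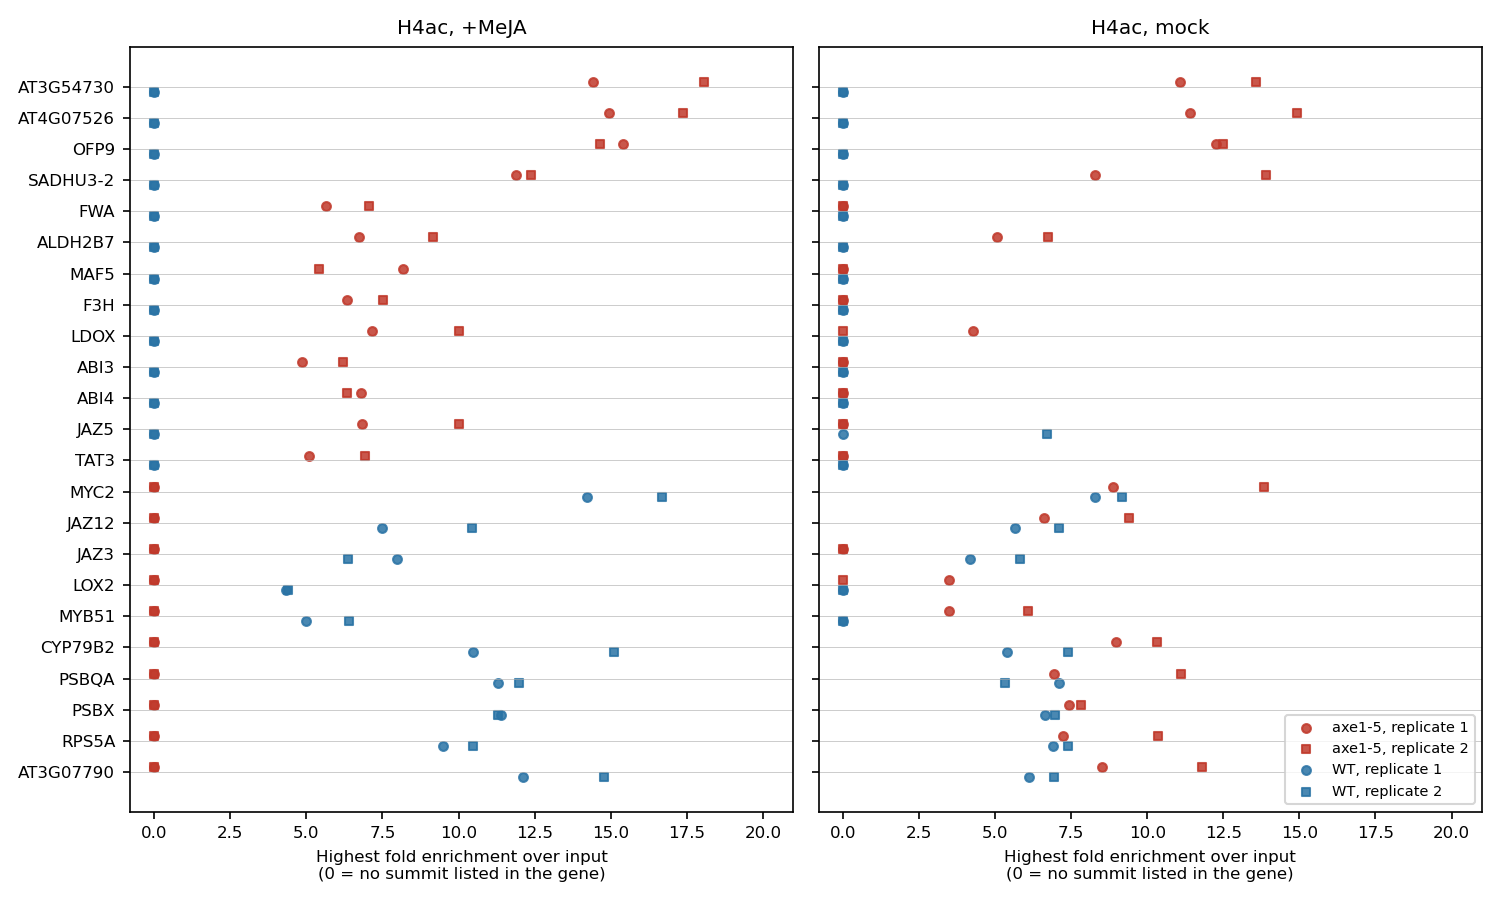
Highest H4ac fold enrichment over input (horizontal axis, ratio, linear) at 23 named loci, with +MeJA libraries in the left panel and mock libraries in the right, *axe1-5* in red and WT in blue, circles for replicate 1 and squares for replicate 2; 0 means that no summit was listed in the gene. The upper 13 loci were *axe1-5*-only and the lower 10 WT-only under MeJA, as the rule fixes, while in mock seedlings *MYC2*, *PSBQA* and *RPS5A* had summits in all 4 libraries.

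The calls among jasmonate genes were too few to be read against the shares of all genes (7.88% *axe1-5*-only and 7.45% WT-only). Of 17 genes of JA biosynthesis and turnover with a summit in any list, 1 was *axe1-5*-only (5.88%) and 2 WT-only (11.8%), and of 16 signalling genes 2 were *axe1-5*-only (12.5%) and 3 WT-only (18.8%). *LOX2*, a 13-lipoxygenase of the wound-induced pathway, had 4.34 and 4.41 in WT +MeJA, and *JAR1*, which joins jasmonate to isoleucine, had 5.26 and 6.12; no *axe1-5* peak overlapped either gene, and the call of *JAR1* was lost with a score of at least 100. The JAZ repressor genes divided: *JAZ12* (7.48 and 10.5) and *JAZ3* (7.98 and 6.36) were WT-only with no *axe1-5* peak. *JAZ5* (6.82 and 10.0) and *JAZ6* (5.65 and 5.35) were *axe1-5*-only by their summits, and *JAZ6* lost the call with a score of at least 100. WT peaks nevertheless overlapped both genes, and the nearest WT summits lay 445 to 473 bp outside them. The 13-lipoxygenase gene *LOX4* (9.26 and 9.86 in *axe1-5*) was overlapped in the same way by WT peaks of 10.8 and 12.4.

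*MYC2*, the central transcription factor of the pathway, had the highest value of the list at 14.2 and 16.7 in WT +MeJA and no summit in *axe1-5* +MeJA. Peaks of 10.9 and 12.0 in *axe1-5* nevertheless overlapped the gene, with the nearest summits 1148 and 1212 bp outside it. In mock seedlings all 4 libraries had a summit in *MYC2* (8.87 and 13.8 in *axe1-5*, 8.28 and 9.18 in WT). Its call was lost when only peaks with a false discovery rate of at most 5% were kept. The JA-responsive marker gene *TAT3*, a tyrosine aminotransferase, was *axe1-5*-only at 5.09 and 6.92, listed at 0 in all mock libraries, and short of a score of 100. Of 9 glucosinolate genes measured, 2 were WT-only and 0 *axe1-5*-only, too few to be read against the 7.45% and 7.88% of all genes. *MYB51*, a regulator of indolic glucosinolates, had 5.00 and 6.41 in WT +MeJA and 3.49 and 6.09 in mock *axe1-5*, with 0 in mock WT. The genotype that held a listed summit thus changed with treatment, but its WT-only call was lost with a score of at least 100. *CYP79B2*, which starts indolic glucosinolate synthesis from tryptophan, had 10.5 and 15.1 in WT and was overlapped by *axe1-5* peaks of 12.9 and 16.5. The nearest *axe1-5* summits lay outside *CYP79B2*, 3235 and 3205 bp from its edge.

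In the phenylpropanoid and flavonoid pathway, 4 of 20 genes measured were *axe1-5*-only, none of them overlapped by a WT peak, and 0 were WT-only. Of all protein-coding genes measured, 7.29% were *axe1-5*-only and 7.43% WT-only, and 20 genes are too few to be read against these shares. *LDOX*, which makes anthocyanidins, had 7.14 and 10.0 in *axe1-5* +MeJA, and *F3H*, the flavanone hydroxylase, had 6.34 and 7.53. *PAL3*, a phenylalanine ammonia-lyase, had 6.96 and 9.16, and *4CL3*, a coumarate-CoA ligase, had 5.76 and 7.72. *F3H* and *4CL3* were listed at 0 in all 4 mock libraries, and *LDOX* had a value in 1 *axe1-5* mock library alone (4.28). *PAL3* had a summit in 1 mock library of each genotype, 5.05 in *axe1-5* and 4.00 in WT, and its summits in the 2 *axe1-5* +MeJA lists were 2395 bp apart. With a score of at least 100 required, *F3H* and *4CL3* lost the call, and *LDOX* lost it when summits up to 2000 bp upstream were counted.

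Among 7 measured loci known to be repressed by HDA6 or by DNA methylation, 3 were *axe1-5*-only and 0 WT-only. So short a list cannot be read against the 7.29% and 7.43% of all protein-coding genes measured. *ALDH2B7*, an aldehyde dehydrogenase gene, had 6.72 and 9.16 under MeJA and 5.07 and 6.73 in mock *axe1-5*. *FWA*, a homeobox gene that DNA methylation keeps silent in seedlings, had 5.63 and 7.07, and the floral repressor gene *MAF5* had 8.18 and 5.43. The summits of *MAF5* in the 2 replicates lay 4520 bp apart, so that the 2 values come from opposite ends of the gene. Of the 130 *axe1-5*-only loci examined singly, 3 had summits over 1000 bp apart (*MAF5*, *PAL3* and *AT1G63870*), and of the 108 such WT-only loci 0 had. *FWA* and *MAF5* were listed at 0 in all mock libraries, so that only *ALDH2B7* of these showed the genotype pattern without MeJA. The calls of *ALDH2B7* and *MAF5* were lost with a score of at least 100. The list was made from what is known of HDA6, and its members were gathered with earlier results of these data known.

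The seed regulators *ABI3* (4.85 and 6.20) and *ABI4* (6.81 and 6.35) were *axe1-5*-only, out of 4 embryo and seed maturation genes measured. Both carried an H3K27me3 summit in all 7 lists of that mark, and neither call held with a score of at least 100. In the thalianol and marneral clusters, whose neighbouring genes build root triterpenes, *CYP705A12* (6.78 and 8.39) and *THAD* (4.93 and 7.00) were *axe1-5*-only out of 5 measured, also short of a score of 100. No gene of these lists was WT-only. Of 9 genes for HDA6 partners and histone acetylation enzymes, *LDL1*, a histone demethylase, and *HAC1*, a histone acetyltransferase, were WT-only, and both were overlapped by *axe1-5* peaks. The reference gene *PP2AA3* was also WT-only, at 7.05 and 7.41, the only call among 6 housekeeping genes measured. All these lists are too short to be read against the 7.29% *axe1-5*-only and 7.43% WT-only of all protein-coding genes measured.

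Gene families differed in how their members fell on the 2 sides. Of all 17277 protein-coding genes measured, 7.29% were *axe1-5*-only and 7.43% WT-only, and each family is given beside these shares with no test. MADS-box genes had 12 *axe1-5*-only members of 44 (27.3%) and 1 WT-only member, the floral repressor gene *MAF1*. The highest were *AGL91* at 9.72 and 14.1 and *AGL64* at 11.2 and 11.9. F-box genes, which give target specificity to ubiquitin ligases, had 52 of 251 (20.7%) against 7 (2.79%), with *AT1G22000* (9.62 and 13.2) and *SON1* (8.76 and 12.4) among the highest. With a score of at least 100, 5 MADS-box and 15 F-box genes were WT-only, against 10 and 31 *axe1-5*-only, and without *axe1-5* replicate 1 the WT-only F-box genes numbered 18. Also without that library, WT-only receptor-like and P450 genes numbered 24 and 16, against 13 and 7 with it.

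C2H2 zinc finger genes had 9 *axe1-5*-only members of 50 (18%) and 0 WT-only members, but 5 were WT-only with a score of at least 100 and 6 without *axe1-5* replicate 1. Of 19 class III peroxidase genes, 6 were *axe1-5*-only and 1 WT-only. Receptor-like kinases and proteins had 50 of 322 (15.5%) against 13 (4.04%), and cytochrome P450 genes 22 of 137 (16.1%) against 7 (5.11%). *CYP722A1* had 10.7 and 10.2 and *CYP71A23* had 8.68 and 9.59 in *axe1-5* +MeJA, and both had summits in both *axe1-5* mock lists and no WT list. NLR genes, the intracellular immune receptors, had 13 of 129 (10.1%) against 3 (2.33%), led by *AT4G09430* at 11.0 and 13.9. Homeobox genes, with 11 of 128 (8.59%) against 6 (4.69%), lay nearer the shares of all protein-coding genes. The 11 included the HD-ZIP genes *HDG4* (9.77 and 13.7) and *HDG9* (7.82 and 11.4).

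Sugar and ABC transporters had 13 *axe1-5*-only members of 80 (16.3%) and 1 WT-only member. *SUC2*, the phloem sucrose transporter, had 7.51 and 8.93 in *axe1-5*, and the vacuolar fructose transporter gene *SWEET17* was the WT-only member at 4.67 and 4.71. WRKY genes were even, with 2 of 39 on each side: *WRKY54* (8.24 and 10.2) and *WRKY23* (6.52 and 7.39) were *axe1-5*-only, and *WRKY70* (7.99 and 6.44) and *WRKY40* (6.51 and 6.27) were WT-only. ERF and AP2 genes (5 of 76 against 1) and heat shock genes (9 of 178 against 14) lay near or below the shares of all protein-coding genes.

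**Figure D2:**
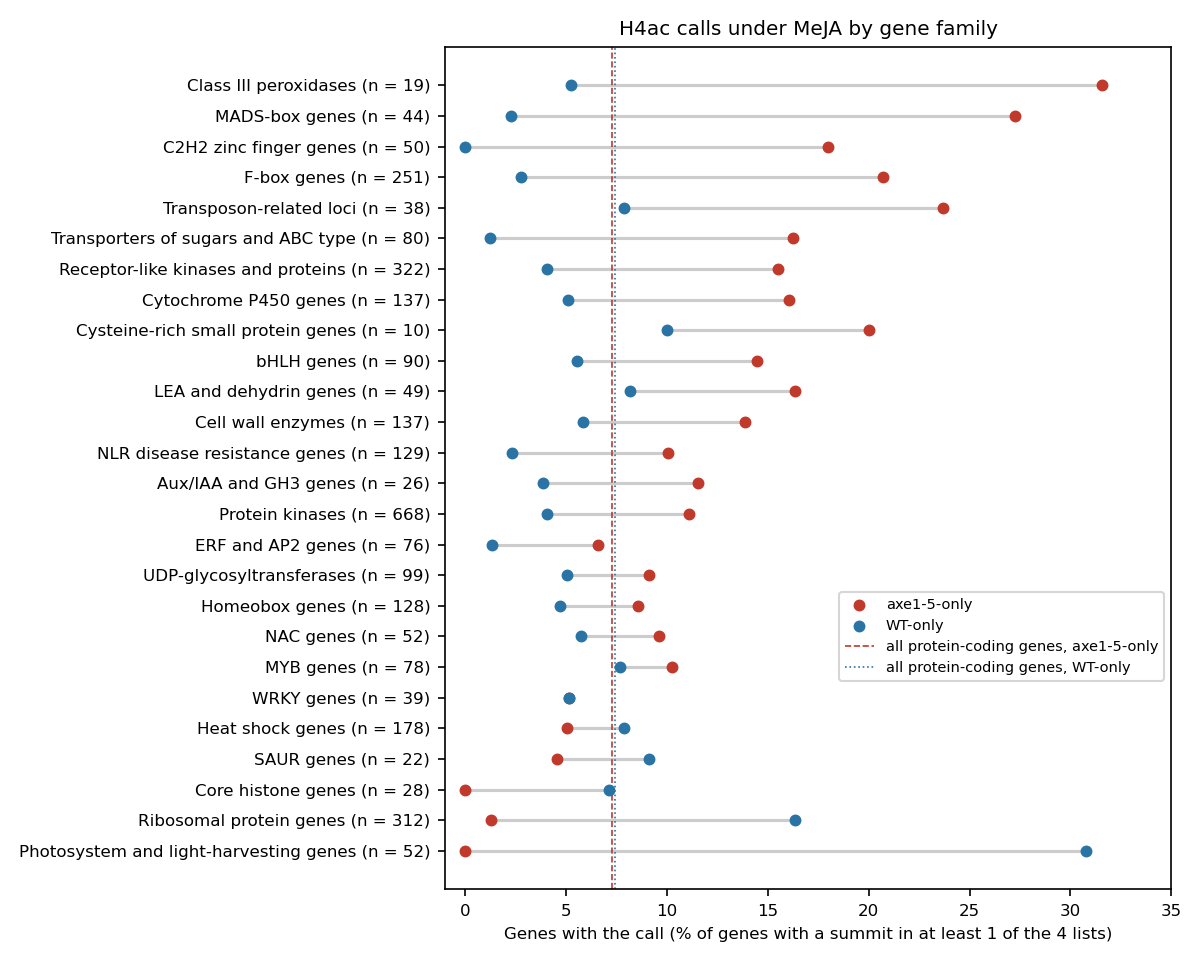
Share of the measured members of each gene family (vertical axis, n measured) that were *axe1-5*-only (red) or WT-only (blue) under MeJA, as a percentage of family genes with a summit in at least 1 of the 4 lists; vertical lines give the shares over all protein-coding genes, 7.29% and 7.43%. Class III peroxidases and MADS-box genes lie farthest towards *axe1-5*-only, and ribosomal protein genes (16.3%) and photosystem genes (30.8%) lie farthest towards WT-only.

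Ribosomal protein genes showed the opposite balance, with 51 WT-only members of 312 (16.3%) and 4 *axe1-5*-only members (1.28%). *RPS5A*, which codes for a protein of the small subunit, had 9.50 and 10.5 in WT +MeJA, *AT3G58700* had 9.95 and 11.0, and *AT5G16130* had 8.96 and 10.7. Of the 51, 34 were overlapped by no *axe1-5* +MeJA peak, and 45 had a summit in at least 1 mock *axe1-5* list. Ribosomal proteins are coded by families of close copies, and reads shared between copies may be placed on either, which limits the values of single members. Under the other rules for peaks and genes, the WT-only count of this family ranged from 34 to 77 and the *axe1-5*-only count from 1 to 6. With a library left out these counts were 57 to 98 and 7 to 13, and the 98 was that without *axe1-5* replicate 1.

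Photosystem and light-harvesting genes had 16 WT-only members of 52 (30.8%) and 0 *axe1-5*-only members. *PSBQA* and *PSBX*, which code for subunits of photosystem II, had 11.3 and 12.0 and 11.4 and 11.3 in WT +MeJA, and *PSAE-2*, a photosystem I subunit gene, had 10.2 and 10.1. No *axe1-5* +MeJA peak overlapped 12 of the 16. In mock seedlings 14 of the 16 had a summit in at least 1 *axe1-5* list, for example 6.95 and 11.1 at *PSBQA* and 7.43 and 7.81 at *PSBX*. Under the other rules for peaks and genes 12 to 18 members were WT-only and 0 *axe1-5*-only, and with a library left out 17 to 22 and 0 to 3.

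The promoters of both sides differed in the letters they held. In the 300 bases from 250 before to 50 after the start, the site II element printed above occurred on either strand in 29.8% of 1283 WT-only and 9.29% of 1259 *axe1-5*-only protein-coding genes, beside 16.5% of those acetylated in all 4 lists and 15.5% of all 27444. The G-box occurred in 11.9% of WT-only and 4.45% of *axe1-5*-only promoters, against 7.70% and 7.68%. The W-box (TTGACC or TTGACT) was held by 30.9% to 33.0% of each set, the GCC-box (GCCGCC) by 1.91% to 3.51% and the telobox by 2.86% to 3.98%. G+C content ranged only from 31.4% to 32.7%. Without overlapped loci, site II was held by 28.0% of WT-only and 5.76% of *axe1-5*-only promoters. A match is a run of letters in this window and does not show that a factor binds there.

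Ribosomal protein genes were part of this pattern but not all of it. Site II occurred in 40 of the 51 WT-only ribosomal protein promoters (78.4%) and in 51.8% of all 386 such promoters. WT-only genes outside the ribosomal and photosystem families held it in 27.9%, against 14.9% of all genes outside them. The G-box occurred in 8 of the 16 WT-only photosystem promoters, among them *LHCA4* (8.99 and 9.16 in WT +MeJA), and in 20 of all 60. The 2131 protein-coding genes with summits in both WT lists and 1 *axe1-5* list, just outside the rule, held site II in 27.3% and the G-box in 9.81%.

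**Figure D3:**
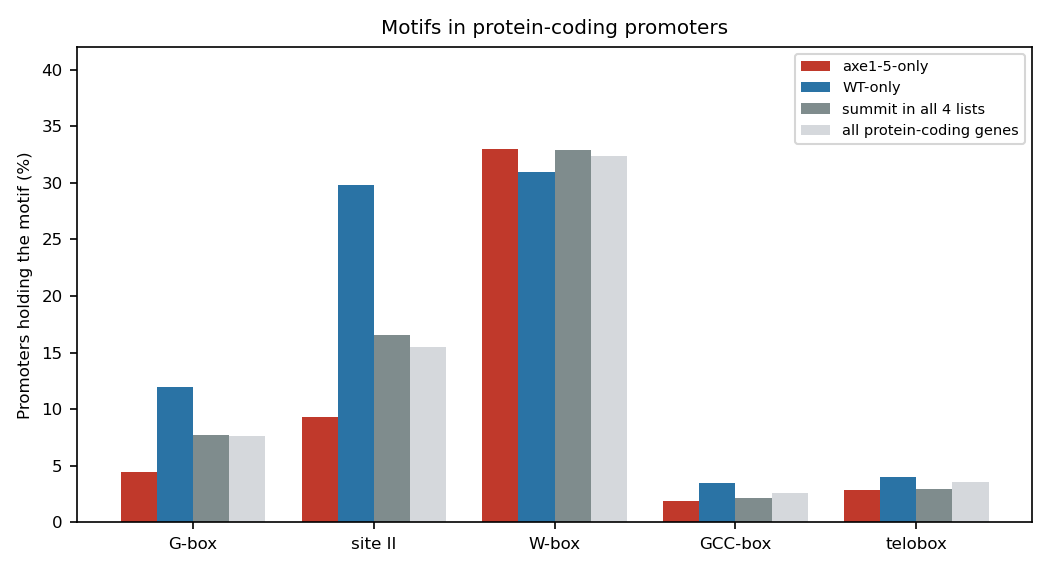
Share of protein-coding promoters (250 bases before to 50 after the start) that held each motif on either strand (vertical axis, %), for *axe1-5*-only genes (n = 1259), WT-only genes (n = 1283), genes with a summit in all 4 lists (n = 9832) and all protein-coding genes (n = 27444). Site II is at 29.8% in WT-only and 9.29% in *axe1-5*-only promoters, while the W-box bars lie between 30.9% and 33.0%.

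The position of the summit within the gene also differed. Summits of WT-only protein-coding genes lay a median of 297 and 293 bp from the annotated start in the 2 replicates, and 95.7% and 95.3% lay within 1000 bp of it. Those of *axe1-5*-only genes lay farther in, at 447 and 445 bp, with 76.8% and 76.4% within 1000 bp. In genes acetylated in all 4 lists the median was 358 and 359 bp. These 2 values come from the *axe1-5* lists alone, and none was computed from the WT lists. *axe1-5*-only genes were shorter, with a median length of 1971 bp against 2566 bp for WT-only genes and 2471 bp for those in all 4 lists.

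Neighbouring members were few. The longest run of adjacent *axe1-5*-only protein-coding genes had 3 members, *AT1G74860*, *AT1G74870* and *AT1G74875* on chromosome 1, of which the last 2 share a peak. WT-only loci had 2 runs of 4, *AT5G14260* to *AT5G14280* with the bromodomain gene *BET9*, and *NIH* to *AT1G06700* with the photosystem II gene *PSBP-1*. A run of 3 held the clock gene *TOC1*, at 8.85 and 7.18 in WT +MeJA. In all, 98 *axe1-5*-only and 110 WT-only loci overlapped another locus of the same set.

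The *axe1-5*-only loci held H3K27me3, a repressive mark laid down by Polycomb proteins, more often than the other sets in libraries that the rule had not used. Both *axe1-5* +MeJA lists of that mark had a summit in 413 of the 1464 loci (28.2%), against 28 of the WT-only loci (2.02%), 3.75% of the genes acetylated in all 4 lists and 10.0% of all nuclear genes. Both WT mock lists had one in 203 *axe1-5*-only loci (13.9%) and 11 WT-only loci (0.79%). At least 1 of the 7 lists had one in 640 (43.7%) and 61 (4.41%). *SON1*, *CYP71A23* and the peroxidase gene *AT3G03670*, all *axe1-5*-only, carried it in all 7.

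Pseudogenes differed from the other *axe1-5*-only loci in this mark, since 18 of the 114 (15.8%) had an H3K27me3 summit in both *axe1-5* +MeJA lists, against 31.1% of the protein-coding ones. The H3K27me3 lists ranged from 577986 tags in the only WT +MeJA list analysed here to 8879066, and their median peak length from 170 to 2911 bp. Each +MeJA H3K27me3 list was called against the same input library as the H4ac list of its genotype and number, and the part of this sharing was not tested. In WT mock seedlings, whose inputs were separate, the order of the 3 sets was the same.

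**Figure D4:**
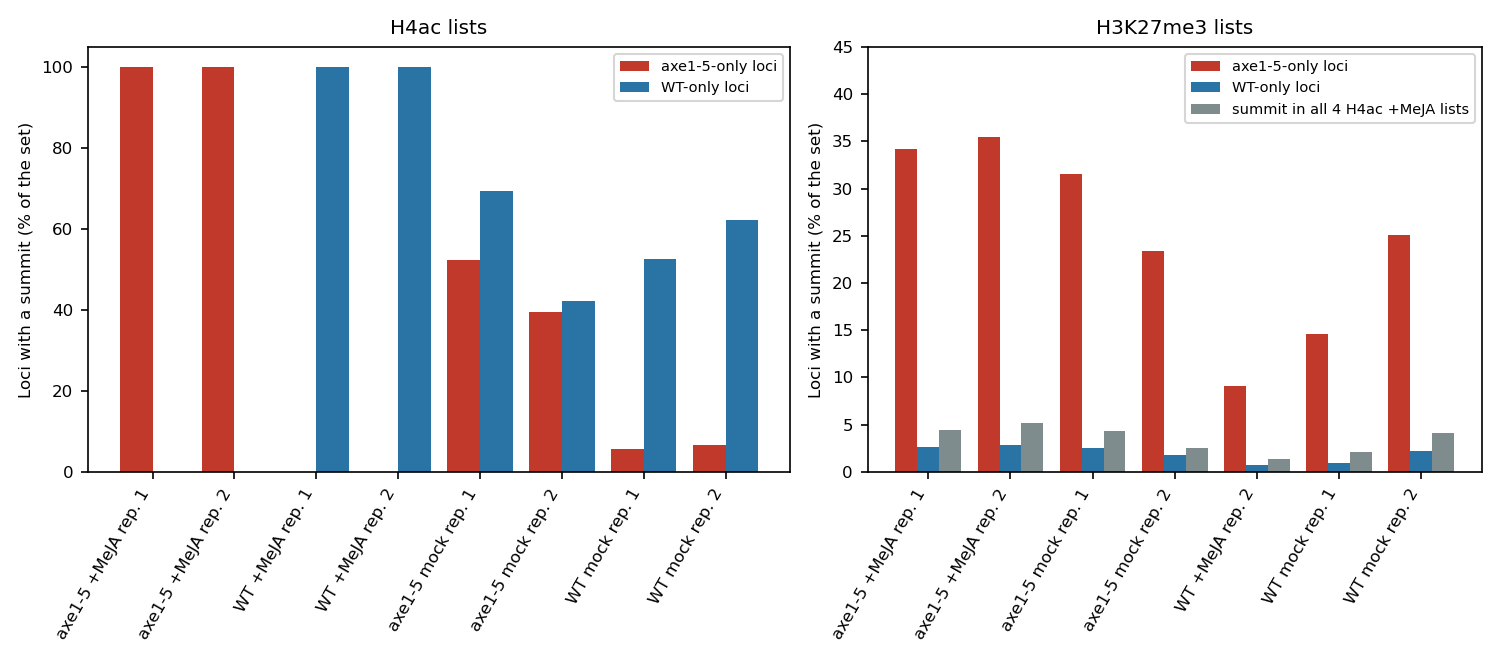
Share of loci (vertical axis, %) with a summit in each H4ac list (left) and each H3K27me3 list (right), for *axe1-5*-only loci (red, n = 1464), WT-only loci (blue, n = 1384) and, on the right, genes acetylated in all 4 +MeJA lists (grey, n = 10345). The +MeJA H4ac bars are fixed at 100% and 0% by the rule; in the mock lists *axe1-5*-only loci reach 52.4% and 39.5% in *axe1-5* but 5.67% and 6.69% in WT, and WT-only loci reach 42.3% to 69.3% in all 4.

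In mock seedlings the sides behaved differently. At *axe1-5*-only loci, both mock *axe1-5* lists had a summit in 469 (32.0%) and both mock WT lists in 39 (2.66%), so that few had a WT summit without MeJA either. At WT-only loci the genotypes lay closer, with 507 (36.6%) in both *axe1-5* lists and 553 (40.0%) in both WT lists. At least 1 *axe1-5* mock list had a summit in 1038 of them (75%), and at least 1 WT mock list also in 1038. Genes acetylated in all 4 +MeJA lists reached 91.0% and 83.7%. The mock libraries were shallower, with 3235473 to 7222121 tags, and the part of depth in these shares was not tested.

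Treated and mock seedlings gave the *axe1-5*-only call for the same 407 loci, which were 27.8% of the 1464 called under MeJA and 32.1% of the 1269 called in mock seedlings. WT-only calls coincided at 81 loci, 5.85% of the 1384 and 32.1% of the 252. Among the 407, 61 (15.0%) were pseudogenes and 52 (12.8%) lay in gene-poor bins. Among the 567 *axe1-5*-only loci with no summit in any mock list, pseudogenes numbered 21 (3.70%) and genes in gene-poor bins 20 (3.53%), and 522 were protein-coding. The 407 also had the higher median fold enrichment, 7.94 and 10.1 against 5.71 and 7.42. H3K27me3 summits in both *axe1-5* +MeJA lists were found at 26.3% of the 407 and 30.3% of the 567.

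The level of acetylation was tested at the 10345 genes that held a summit in all 4 lists and so belonged to neither side. With limma on the log2 fold enrichment, after each list had been centred on its own median, 589 genes (5.69%) were higher and 92 (0.889%) lower in *axe1-5* +MeJA at an adjusted p of 0.05 or less. With no centring these counts were 149 and 7. The lower count was 48 without *axe1-5* replicate 1 and 42 without WT replicate 2. The replicates correlated at 0.716 in *axe1-5* and 0.822 in WT over these genes, which are not independent, and the genotypes at 0.543 to 0.613. The largest difference was at *AT1G11370*, a pectin lyase-like gene, at 15.7 and 17.1 in *axe1-5* against 4.66 and 6.20 in WT (log2 difference 1.67, SE 0.17, limma adjusted p = 5.45e-05). *AT4G12140*, a RING/U-box gene, had 13.3 and 17.0 against 4.83 and 5.47. In the plot of level and difference, the higher genes gather at the low end of mean enrichment, and the part of the level in the count was not tested.

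Some of the families described above are set beside the 5.69% higher and 0.889% lower of all shared genes, with no test. Higher were 26 of 185 receptor-like genes (14.1%), 19 of 132 F-box genes (14.4%), 15 of 90 NLR genes (16.7%), 4 of 15 MADS-box genes, 6 of 30 C2H2 genes and 36 of 152 pseudogenes (23.7%), and 0 of each were lower. P450 genes had 8 higher and 1 lower of 66, sugar and ABC transporters 3 higher (6.98%) and 1 lower of 43, and class III peroxidases 0 of 2 either way. Ribosomal protein genes had 1 higher and 2 lower of 147, and photosystem and light-harvesting genes 1 higher (5.56%) and 0 lower of 18. An H3K27me3 summit in both *axe1-5* +MeJA lists was found at 119 of the 589 higher genes (20.2%) and at 0 of the 92 lower genes, beside 3.75% of all 10345.

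Genes of the pathway lists that passed the limma test included *TT4*, chalcone synthase, at 7.33 and 11.1 in *axe1-5* against 3.98 and 5.71 in WT (log2 difference 0.98, limma adjusted p = 0.00318). *TT5*, chalcone isomerase, and *4CL2* were higher by 0.82 each on the log2 scale, though with no centring neither passed. Of the 11 shared genes of this pathway, 3 were higher and 0 lower. *SDC*, a gene silenced through DNA methylation of its promoter, had 8.48 and 12.3 against 5.00 and 6.02 (log2 difference 0.96, limma adjusted p = 0.00208). WT peaks of 11.5 and 12.2, with summits outside *SDC*, also overlapped it, and the limma values leave them out. *AT5G47980*, an acyltransferase gene of the thalianol cluster, was higher by 1.14.

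In the lower direction, *AOS*, which makes the allene oxide precursor of jasmonate, had 6.81 and 7.83 in *axe1-5* against 10.0 and 14.4 in WT (log2 difference −0.65, limma adjusted p = 0.0329). The call was lost with no centring (−0.72), without *axe1-5* replicate 2 (−0.60) and without WT replicate 2 (−0.46). *STZ*, a zinc finger repressor gene of stress responses, had 5.29 and 8.65 against 11.9 and 13.6 (log2 difference −0.85, limma adjusted p = 0.00679), and did not pass without *axe1-5* replicate 1 (−0.65). The P450 gene *CYP84A4* had the largest difference, −0.90, at 7.18 and 9.70 against 13.7 and 19.3. The polyubiquitin gene *UBQ10* was lower, at 4.13 and 6.78 against 8.43 and 9.61 (log2 difference −0.70), and lost its call with no centring (−0.77), without *axe1-5* replicate 1 (−0.51) and without WT replicate 2 (−0.68).

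**Figure D5:**
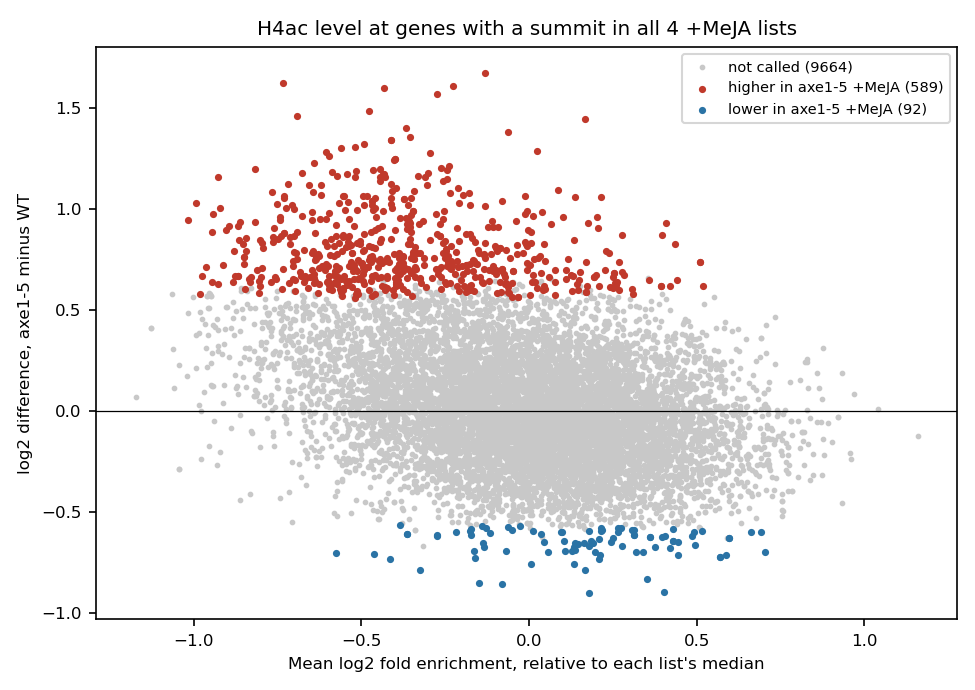
Log2 difference in H4ac fold enrichment, *axe1-5* minus WT under MeJA (vertical axis), against the mean log2 fold enrichment of the 4 libraries after centring on each list's median (horizontal axis), for the 10345 genes with a summit in all 4 lists. The 589 genes called higher (red) lie mostly left of 0, and the 92 called lower (blue) lie on both sides of it.

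Mock seedlings gave a separate reading of these levels. Of the 236 higher genes with a summit in every mock list, 132 (55.9%) had both *axe1-5* mock values above both WT mock values and 14 had the reverse, beside 18.3% and 18.5% of the 8227 shared genes with such data. The median difference of the 236 genes was 0.32 on the log2 scale without MeJA and 0.71 with it. Of 90 lower genes with mock data, 17 were above and 29 below, with a median of −0.02.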

How the data were processed

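H4ac and H3K27me3 were measured by ChIP-seq in whole seedlings. Per the labels and the study's methods, the authors trimmed reads (Trimmomatic 0.36.5, from the submitters' processing notes), aligned them to TAIR10 with Bowtie and called peaks against input with MACS 1.4.2, separately for each library. The deposited peak lists give positions, tag counts per peak, a score of 10 times the negative log10 of the p-value (cutoff 1e-05), a fold enrichment ratio over input, and a false discovery rate in percent, all as the authors' peak caller wrote them. Peak lists were analysed for 15 of the 23 samples.

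Summits (peak start plus summit offset) were placed on the RefSeq TAIR10.1 annotation of the 5 nuclear chromosomes. A locus was called from both replicates of a genotype. Genes with a summit in all 4 lists were tested with limma 3.58.1 (R 4.3.3) on the log2 fold enrichment, with Benjamini-Hochberg adjustment. Fold enrichment carries counting error that grows as tags fall, and no interval was computed from it. On simulated data for this comparison (10345 genes, 200 moved by a log2 difference of 1), 99% were recovered with 10 false calls. Counting and figures used Python 3.11.15, numpy 2.4.6, pandas 2.3.3, Biopython 1.88 and matplotlib 3.10.9.

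Loci and gene lists were chosen with earlier results of these data known. Named are *HDA6*, the 10 protein-coding and 5 other loci with the highest mean fold enrichment on each side among those not overlapped, called members of 10 hand-made lists, up to 4 called members a side of 26 families, the 5 largest limma differences each way, and the 3 longest runs a side, with exceptions stated; not every named gene is described. Families are text matches to RefSeq product names, and several patterns were corrected after their matches had been seen. Alternatives covered peak thresholds (score of at least 100, false discovery rate of at most 5%, equal numbers of peaks), the assignment of peaks to genes, each library left out, and the centring and replicate block of the limma fit.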

Additional observations from a re-analysis of the deposited data

Results flagged for a closer look

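Genotype patterns that were opposite with and without MeJA were found at a small number of loci, and the difference was not tested. At 3 loci, *AT3G59780*, *AT5G40190* and the DNA methyltransferase gene *MET1*, both *axe1-5* lists and neither WT list had a summit under MeJA, while both WT lists and neither *axe1-5* list had one in mock seedlings. WT peaks overlapped all 3 under MeJA. *MET1* had 4.69 and 5.84 in *axe1-5* +MeJA and 4.49 and 5.96 in mock WT.

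The reverse, WT-only under MeJA and *axe1-5*-only in mock seedlings, was found at 54 loci, 29 of them overlapped by no *axe1-5* +MeJA peak. Among these, *mtACP2*, a mitochondrial acyl carrier protein gene, had 9.68 and 12.9 in WT +MeJA and 6.89 and 10.2 in mock *axe1-5*, and *AT5G48630*, a cyclin family gene, had 9.74 and 9.89 and 5.04 and 8.39. *AT5G40190* and *DEG9* are divergent neighbours on chromosome 5, between 16069043 and 16073387, and their summits changed places. The summit lay in *DEG9* in WT +MeJA (14.5 and 16.1) and mock *axe1-5* (9.24 and 14.2), and in *AT5G40190* in *axe1-5* +MeJA (10.1 and 10.8) and mock WT (8.54 and 8.51).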

How the results depend on the processing

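Requiring a score of at least 100 gave 2296 WT-only loci, 1681 not overlapped by an *axe1-5* peak and 1962 WT-only regions, while 240 shared genes were higher and 44 lower. With no peak of the other genotype within 1000 bp, 550 WT-only loci were left. With no centring, 149 genes were higher and 7 lower. The cause of these changes was not tested. With single libraries left out, the counts ranged from 1751 to 2279 (*axe1-5*-only loci, highest without *axe1-5* replicate 2), 1700 to 3063 (WT-only loci), 1344 to 1644 and 990 to 2084 (loci not overlapped), 1526 to 1925 and 1283 to 2468 (regions), 428 to 667 (genes higher) and 42 to 110 (genes lower). The highest WT-only values (3063, 2084 and 2468) were those without *axe1-5* replicate 1. Apart from the replicate block, the other alternatives left these counts within 1.5 times. Over the 238 named loci and the 5 alternatives on peaks that could take a call away, 955 calls were kept, 235 lost and 0 reversed, and 87 loci kept theirs under all 5. Leaving out a library or counting 2-fold differences only relaxes the rule and cannot lose a call. Of the limma calls for 18 named genes, 120 were kept and 13 lost. With a score of at least 100 only 7 of the 18 were still tested, and these 7 kept their calls.

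Deviations of same-numbered replicates correlated at −0.02 over the shared genes, but 2 pairs cannot settle whether the replicate numbers pair the samples. With the replicate block, 732 genes were higher and 144 lower. A locus at the cutoff can lack a summit for want of tags, and the mock and WT +MeJA H3K27me3 libraries were the shallowest.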

Other observations

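Late embryogenesis abundant and dehydrin genes, which protect cells during drying, had 8 *axe1-5*-only members of 49 (16.3%) and 4 WT-only members (8.16%). Of all protein-coding genes measured, 7.29% were *axe1-5*-only and 7.43% WT-only. The families here are set beside these shares with no test. *AT3G15670* was listed at 7.75 and 14.9 in *axe1-5* +MeJA and at 0 in all mock libraries, although WT +MeJA peaks overlapped the gene, and *AT2G35970* had 7.53 and 10.5. Among the shared genes of this family, limma called 5 of 19 higher and 0 lower in *axe1-5* +MeJA. Cell wall enzymes had 19 *axe1-5*-only members of 137 (13.9%) against 8 (5.84%). The cellulose synthase gene *CESA10* was *axe1-5*-only at 8.37 and 9.59, and *CESA1*, which makes cellulose of the growing wall, was WT-only at 8.23 and 8.98. The core histone genes *RAT5*, an H2A gene, and *AT3G53730* were WT-only, out of 28 measured, at 6.98 and 8.03 and at 8.19 and 7.50. That share, 7.14%, lay near the 7.43% of all protein-coding genes.

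Transposon-related loci, matched by their product names, had 9 *axe1-5*-only members of 38 (23.7%) and 3 WT-only members (7.89%). These shares stand beside the 7.29% and 7.43% of all protein-coding genes measured, with no test. *AT4G20700*, annotated as a reverse transcriptase, had 11.5 and 13.2 in *axe1-5* +MeJA and 5.48 and 11.2 in mock *axe1-5*, with 0 in every WT list. *AT3G30200*, a transposase of the En/Spm family, had 9.78 and 13.0 under MeJA and 7.69 and 11.6 in mock *axe1-5*, also with 0 in every WT list. The domesticated transposase gene *DAYSLEEPER* was WT-only at 9.44 and 9.72, and an *axe1-5* peak overlapped it.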
